A study of Mus musculus with 17 samples.

Results

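Imprinted genes are transcribed mainly from the copy inherited from 1 parent, and they were followed here in single 2-cell mouse embryos whose fathers had or had not been given an inhibitor of poly(ADP-ribose) polymerases. The members were 42 imprinted genes chosen by symbol, and 37 of them had a row (probe set) on the array whose annotation gave that symbol alone, 1 row each. Of the 27 genes expressed from the paternal copy 25 had such a row, and of the 14 expressed from the maternal copy 12 did. Snrpn, Gnas and Ube3a occurred only on rows shared with other symbols, no row was listed for H19 and Kcnq1ot1, and the levels of these 5 genes are not analysed here. The 37 rows are part of 21780 rows with 1 symbol, all of which entered each test.

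All 17 embryos came from natural matings of wild-type 129SVE mice. In the PJ34 group, 10 embryos were fathered by 3 males injected daily for 6 weeks with PJ34, which inhibits PARP1 and PARP2 (4 embryos of MTM11, 4 of MTM13 and 2 of MTM14). In the control group, 7 embryos were fathered by 3 males given saline (1 embryo of A, 3 of B and 3 of D), and the mothers of both groups were untreated. Because both parents were of the same inbred strain, the values do not separate the maternal from the paternal copy, and RNA stored in the egg is measured together with RNA made by the embryo. Embryos of the same father are not independent samples, so the p-values below describe the spread between these embryos and not between males, of which there were only 3 a group.

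The imprint of a gene is a mark, in most cases DNA methylation, that is laid down in the egg or the sperm and kept after fertilization by proteins such as the zinc finger protein ZFP57. In a second class, to which Sfmbt2, Gab1, Smoc1, Jade1 and Slc38a4 belong, the maternal copy is silenced by methylation of histone H3 instead. Many imprinted genes act in growth and in the placenta: Igf2 promotes growth, Igf2r removes the Igf2 protein, Cdkn1c holds back cell division, and Phlda2 limits the size of the placenta.

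The stretches before the transcription starts of the 4 loci below are shown because the levels of these genes carry most of what follows: Usp29 and Igf2r lay well above the background band described next in every embryo, and Mest and Mcts2 were among the members that varied most between embryos. The sequences are those of RefSeq on GRCm38.p6, written 5′ to 3′ on the strand named. Capitals mark TGCCGC or its reverse complement GCGGCA, the hexamer that ZFP57 recognizes when it is methylated. The arrays measured RNA and not these promoters, so a match is a description of the letters only. Peg3 and Usp29, both expressed from the paternal copy, are read away from each other from starts 164 bases apart and share the stretch between them, chr7:6730420-6730582 on the plus strand. The Mest stretch is chr6:30737800-30738049 and the Mcts2 stretch chr2:152686898-152687147, both on the plus strand, and that of Igf2r is chr17:12769707-12769956 on the minus strand.
Peg3-Usp29: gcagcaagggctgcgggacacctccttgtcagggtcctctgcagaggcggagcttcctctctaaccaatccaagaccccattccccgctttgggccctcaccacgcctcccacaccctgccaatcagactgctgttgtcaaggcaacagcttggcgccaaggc
Mest: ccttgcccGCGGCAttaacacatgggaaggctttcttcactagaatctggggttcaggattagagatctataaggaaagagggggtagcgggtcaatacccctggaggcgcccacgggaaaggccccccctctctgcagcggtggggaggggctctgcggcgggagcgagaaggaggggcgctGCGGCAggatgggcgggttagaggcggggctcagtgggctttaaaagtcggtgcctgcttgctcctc
Mcts2: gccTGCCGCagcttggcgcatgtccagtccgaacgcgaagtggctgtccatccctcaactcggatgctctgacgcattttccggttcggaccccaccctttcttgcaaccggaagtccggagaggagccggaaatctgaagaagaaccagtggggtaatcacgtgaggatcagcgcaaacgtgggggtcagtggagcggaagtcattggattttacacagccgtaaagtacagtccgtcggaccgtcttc
Igf2r: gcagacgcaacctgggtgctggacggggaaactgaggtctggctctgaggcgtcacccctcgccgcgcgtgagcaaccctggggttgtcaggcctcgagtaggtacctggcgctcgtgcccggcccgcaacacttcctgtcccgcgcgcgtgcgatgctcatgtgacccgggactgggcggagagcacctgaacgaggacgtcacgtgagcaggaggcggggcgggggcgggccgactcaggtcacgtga
The Mest stretch held 2 copies of the hexamer and that of Mcts2 held 1, while those of Peg3-Usp29 and Igf2r held 0. For Mest, which has several starts, the start with the most hexamers was printed, so its count follows from that choice. The window of another Mest start, chr6:30733256-30733555, held 0. In windows of 300 bases around the start (250 before and 50 after), 11 of the 34 of all 42 members that had a window, Snrpn, Gnas, Ube3a and Kcnq1ot1 included, held the hexamer in at least 1 window, or 32.4%, where 13.1% of 27025 genes did. Members had more windows a gene on average, and counted by window the shares were 21.1% and 11.6%. By parental class these were 7 of 22 paternally expressed and 4 of 11 maternally expressed members. The median number of CpG dinucleotides was 16 in the 57 windows of members and 7 in all 32851 windows.

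Levels are log2 RMA values, which are normalized across arrays but not per length, so that the levels of different genes cannot be ranked. To say which members gave more than background signal, their mean over the control embryos was set against the rows of olfactory receptor genes, which act in sensory neurons: 95% of these 1035 rows lay below 6.2936, called the band limit here. By this measure 18 of the 37 members, or 48.6%, lay above the band in control embryos, close to the 49.2% of all rows that did. They were 10 of 25 paternally expressed members (40%) and 8 of 12 maternally expressed members (66.7%). With the 99th percentile of the olfactory receptor rows as the limit, 11 members (29.7%) lay above it, against 34.3% of all rows. Meg3 sat at the limit itself, with a control mean of 6.2938, and Gab1, at 6.26, and Peg3, at 6.24, were the first below it.

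**Figure D1:**
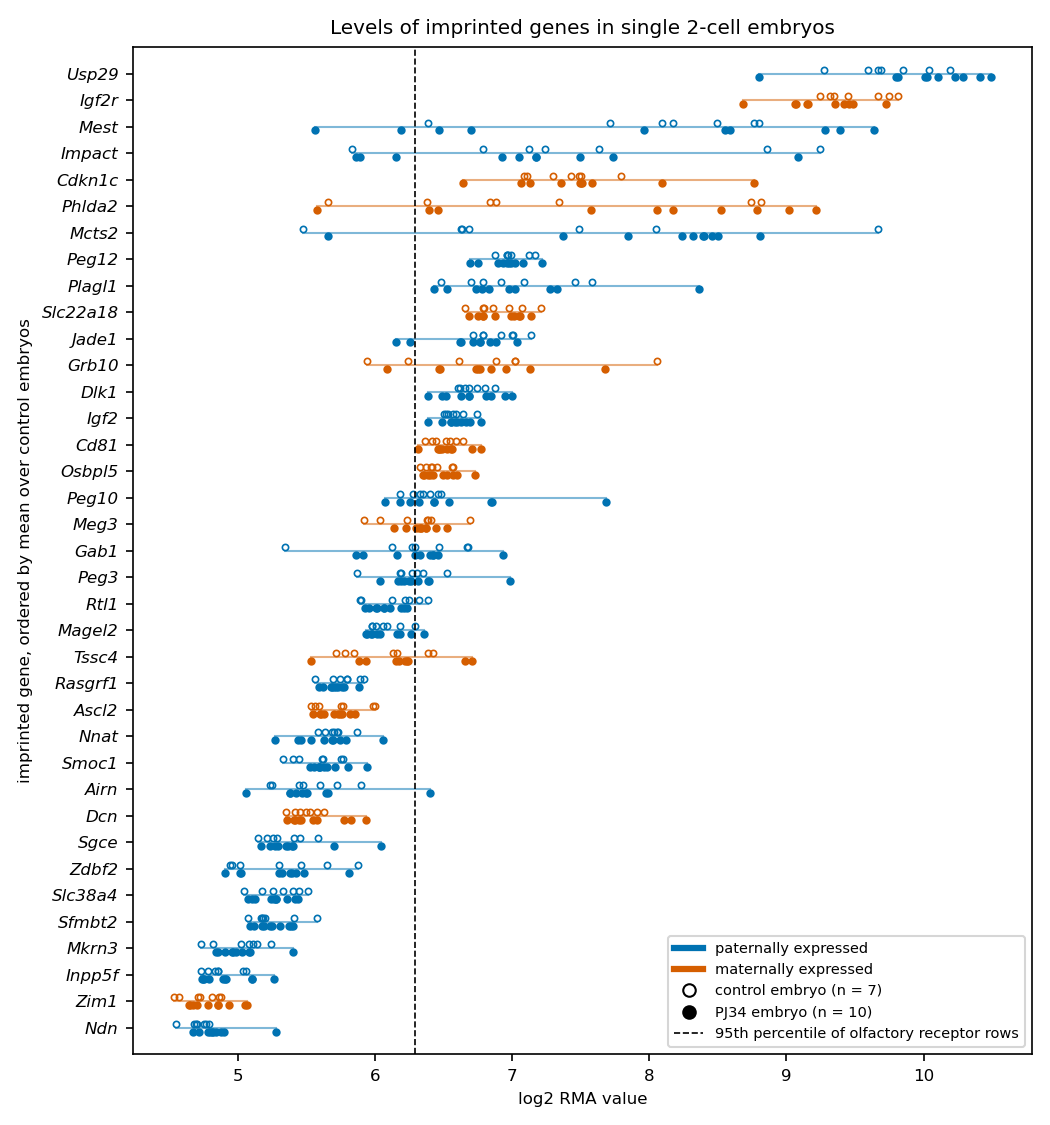
Log2 RMA values (horizontal axis) of the 37 imprinted genes (vertical axis, ordered by their control mean for reading only), with open circles for the 7 control embryos, filled circles for the 10 PJ34 embryos and a line from the lowest to the highest embryo. Colours give the parental copy expressed, and the dashed line is the band limit of 6.2936, which 18 members exceeded in their control mean.

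Embryo by embryo, 10 members lay above the band limit in all 17 embryos, 13 in no embryo and 14 in some. The 10 were the paternally expressed Peg12, Igf2, Dlk1, Plagl1 and Usp29 and the maternally expressed Igf2r, Cdkn1c, Slc22a18, Osbpl5 and Cd81. Usp29, a deubiquitinating enzyme gene, ran from 9.28 to 10.19 in control embryos, with a median of 9.69, and from 8.80 to 10.49 in PJ34 embryos, with a median of 10.06. Its partner across the shared stretch printed above, Peg3, a zinc finger gene, ran from 5.87 to 6.53 in control and from 6.04 to 6.98 in PJ34 embryos, on both sides of the limit. Thus 1 of the 2 genes that leave this promoter was above the band in every embryo. The other, Peg3, was above it in 3 of 7 control embryos. PJ34 embryos were set against the same percentile of the olfactory receptor rows taken over PJ34 embryos, 6.2636. By that limit Peg3 was above in 5 of 10, and MTM11-1, at 6.264, passed this lower limit only.

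Of the other members above the band in every embryo, Cdkn1c and Plagl1 varied over a wide range and the rest over a narrower one. The growth factor gene Igf2 ran from 6.39 to 6.77 over all 17 embryos, and Dlk1, a membrane protein related to Notch ligands, from 6.61 to 6.87 in control embryos with a lowest PJ34 value of 6.38. Peg12, whose product binds the kinase GSK3, ran from 6.69 to 7.21, the transporter gene Slc22a18 from 6.66 to 7.21, the sterol-binding protein gene Osbpl5 from 6.33 to 6.73, and the tetraspanin gene Cd81 from 6.31 to 6.77. Igf2, Dlk1, Osbpl5 and Cd81 were thus above the 95% limit but below the 99% limit of 6.85 in their control means. Cdkn1c ran from 7.09 to 7.80 in control and from 6.64 to 8.76 in PJ34 embryos. Plagl1, a transcription factor that controls growth genes, ran from 6.48 to 7.58 in control and from 6.43 to 8.36 in PJ34 embryos.

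Members below the band in every embryo included well-known genes of later tissues. They were the paternally expressed Ndn, Mkrn3, Nnat, Sgce, Slc38a4, Sfmbt2, Smoc1, Zdbf2, Inpp5f and Rasgrf1 and the maternally expressed Ascl2, Zim1 and Dcn. Ndn, a gene of the MAGE family active in neurons, ran from 4.55 to 5.28, Ascl2, a transcription factor of the placenta, from 5.54 to 6.00, and Dcn, a proteoglycan of connective tissue, from 5.35 to 5.94. Rows in this range do not stand apart from those of olfactory receptors. Of the 5 genes silenced by histone methylation on the maternal copy, only Jade1 was above the band in the control mean, at 6.91. Cell type markers were read beside the members. All 9 rows of oocyte and 2-cell genes lay above the band. Of 10 cumulus cell rows 0 did, and of 7 rows of oviduct and blood genes 2 did (Krt8 and Slc4a1). Several of the 9, such as those of the egg coat, are oocyte genes, so these rows do not by themselves fix the 2-cell stage. The 2-cell genes Zscan4c, Zscan4d and Tdpoz4 had no row of 1 symbol, nor had Ovgp1, Hba-a1 and Hbb-b1 of the oviduct and blood list.

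The members differed in how much they varied from embryo to embryo, but the share with a large SD was near that of all rows. In control embryos 5 members (13.5%) were in the highest 10% of all rows by SD: Mest, Phlda2, Impact, Mcts2 and Grb10. In PJ34 embryos 4 of these 5 (10.8% of members) were again in the highest 10%, and Grb10 was not. The sixth member by SD among control embryos was Gab1, with an SD of 0.46. The control SD was also set against rows whose control mean lay within 0.5 of the member's. Of such rows 17.2% had a larger SD than Mest and 9.75% a larger one than Grb10. For Impact this share was 5.33%, for Phlda2 4.19% and for Mcts2 2.64%.

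Mest encodes a protein of the hydrolase fold, and its promoter stretch is printed above. It ran from 6.38 to 8.80 in control embryos, with a median of 8.17, and from 5.56 to 9.64 in PJ34 embryos, with a median of 8.26. The lowest and the highest PJ34 embryo thus differed 16.9-fold, and the control embryos 5.33-fold. The values spread within single families: the 4 embryos of MTM11 lay at 9.28, 9.64, 6.19 and 6.70, the 4 of MTM13 at 8.55, 7.96, 9.39 and 5.56, and the 2 of MTM14 at 8.59 and 6.46. In control sire D, embryo D-2 lay at 6.38 and the others at 8.17 and 8.76. Over all families the SD of single embryos within sires was 1.46, and the SD of the 6 sire means was 0.34. These are not like measures, because averages over several embryos vary less than single embryos even where sires do not differ.

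Phlda2, expressed from the maternal copy, ran from 5.66 to 8.82 in control embryos, with a median of 6.88, and from 5.58 to 9.22 in PJ34 embryos, with a median of 8.12. Family MTM13 alone covered nearly the whole range, with 6.40, 6.46, 5.58 and 9.22, while the 4 embryos of MTM11 lay between 7.57 and 9.02. Impact, whose product restrains the stress kinase GCN2, ran from 5.83 to 9.25 in control embryos, with a median of 7.24, and from 5.86 to 9.08 in PJ34 embryos, with a median of 7.11. Both groups therefore held embryos below the band limit and embryos more than 2 log2 units above it, for Impact as for Phlda2. Single embryos could be at opposite ends for different genes: control A-2 had the lowest Impact and the highest Phlda2 value of its group, and PJ34 embryo MTM13-4 had the lowest Mest and the highest Phlda2 value. Control B-3 had the highest Impact and Mest values and the lowest Phlda2 value of its group. Other embryos were high for Mest and Phlda2 alike: MTM11-2 had the highest Mest value, at 9.64, and Phlda2 at 9.02. The embryos named are examples, and correlations between these genes were not tested.

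Mcts2 is a retrogene, a copy of the X-linked gene Mcts1 that lies within an intron of H13 and is transcribed from the paternal copy. It ran from 5.47 to 9.67 in control embryos, with a median of 6.68, and from 5.66 to 8.81 in PJ34 embryos, with a median of 8.36. In these control embryos the 3 of sire B lay at 5.47, 6.68 and 6.64 and that of sire A at 6.63. The 3 of sire D lay higher, at 8.05, 7.49 and 9.67. Sires B and D, with 3 embryos each, did not overlap for 3 of the 37 members (Mcts2, Sgce and Slc38a4), in a background of 11.3% of all rows. The share of members was no larger than this background. Whether sires B and D differed for Mcts2 itself was not tested. Of the PJ34 embryos 9 lay between 7.37 and 8.81, and MTM13-1 at 5.66. Mcts1 itself, from which Mcts2 derives and whose row may share sequence with it, was at 5.85 ± 0.62 (SD, n = 7) in control and 5.98 ± 0.39 (n = 10) in PJ34 embryos, and the host H13 was at 7.01 ± 0.21 and 6.77 ± 0.31.

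Grb10, an adaptor that dampens insulin receptor signalling, ran from 5.94 to 8.06 in control embryos, with a median of 6.89, and from 6.09 to 7.68 in PJ34 embryos, with a median of 6.76. Both extremes of the controls came from sire D. Gab1, a docking protein of growth factor receptors, ran from 5.34 to 6.68 in control embryos, with a median of 6.29, and from 5.86 to 6.93 in PJ34 embryos, with a median of 6.36. The low end was a single control embryo, B-2.

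**Figure D2:**
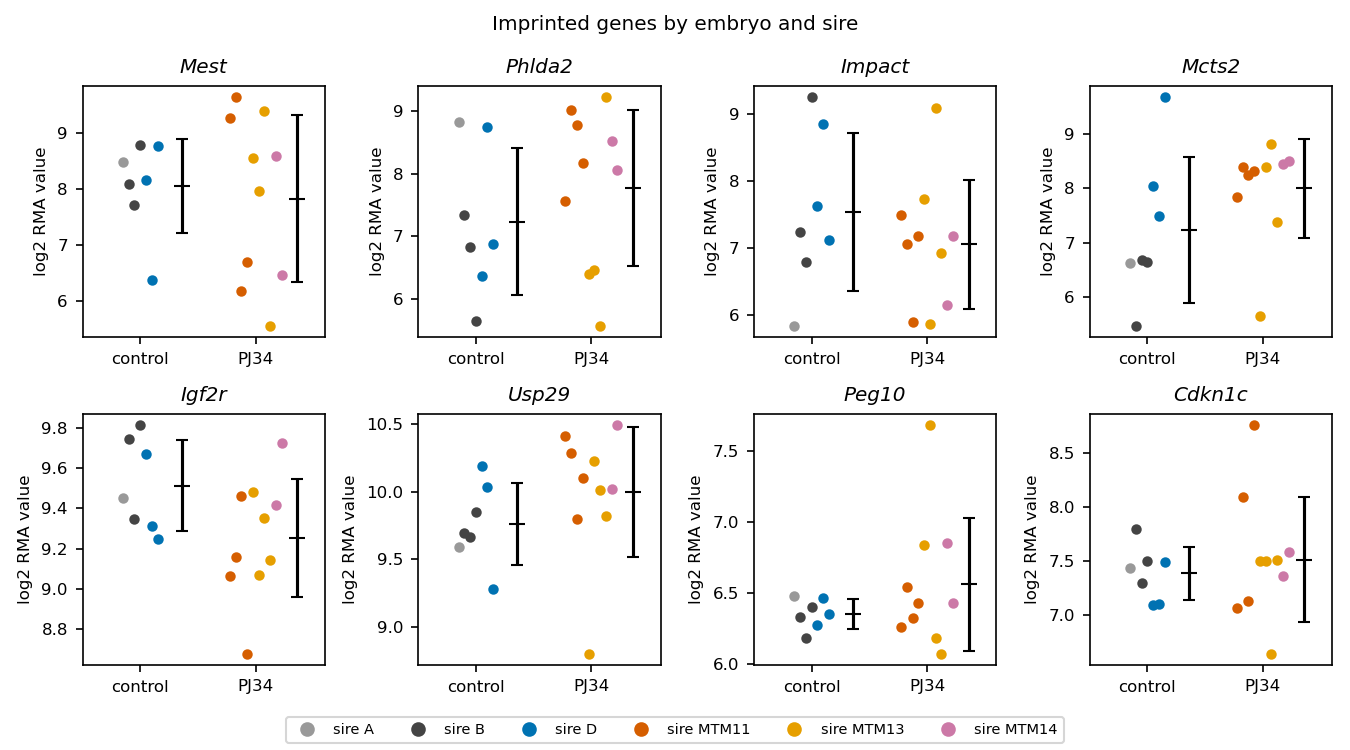
Log2 RMA values (vertical axes, each panel with its own range) of 8 imprinted genes in single embryos, by group and coloured by sire, beside the group mean (short line) with its SD (bar) over 7 control or 10 PJ34 embryos. Mest spread from 5.56 to 9.64 in PJ34 embryos, and for Mcts2 the control embryos of sires B and D did not overlap, as was so for 11.3% of all rows.

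The first question of the design was whether the embryos of PJ34-treated fathers differed as a group. No member passed limma's test at an adjusted p below 0.1, where the background was 0% of all rows, and the lowest adjusted p of a member was 0.843. With the sire as a random block 0 members passed as well (background 0.00918%). The estimated sire correlation was slightly negative, at -0.038, so this fit made no allowance for likeness between embryos of a sire. At an unadjusted p below 0.05, 0 members were higher (background 1.96% of rows) and 1 was lower (background 3.93%, or 5.89% in either direction). Differences were below 0 for 16 of 37 members, or 43.2%, and for 56.4% of all rows. The median difference was 0.02 over members and -0.02 over all rows. Each array held the RNA of a whole embryo, so that less RNA of a gene in 1 cell and in every cell cannot be told apart.

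Jade1, the scaffold of a histone acetyltransferase complex, was the member below an unadjusted 0.05. It ran from 6.71 to 7.13 in control embryos, with a median of 6.92, and from 6.15 to 7.04 in PJ34 embryos, with a median of 6.74. The groups overlapped, although 9 of 10 PJ34 embryos lay below the control mean. The log2 difference was -0.24 (95% interval -0.48 to -0.004, limma, unadjusted p = 0.0469, adjusted p = 0.843). The other 4 genes of its class, silenced by histone methylation on the maternal copy, differed by -0.05 (Slc38a4), -0.003 (Sfmbt2), 0.06 (Gab1) and 0.10 (Smoc1).

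Igf2r, the receptor that carries Igf2 to the lysosome, ran from 9.25 to 9.81 in control embryos, with a median of 9.45, and from 8.68 to 9.72 in PJ34 embryos, with a median of 9.26. Again 9 of 10 PJ34 embryos lay below the control mean, the exception being MTM14-2. The log2 difference was -0.26 (95% interval -0.53 to 0.01, limma, unadjusted p = 0.0606, adjusted p = 0.847). Its ligand Igf2 was at 6.59 ± 0.08 (SD, n = 7) in control and 6.59 ± 0.11 (n = 10) in PJ34 embryos, a difference of 0.01 (95% interval -0.11 to 0.12).

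The 3 largest differences, those of Mcts2, Phlda2 and Impact, belonged to members with a wide spread, and none passed. Mcts2 differed by 0.77 (95% interval -0.32 to 1.85, limma, adjusted p = 0.895), and this value rested on the control families: it was 0.04 without sire B and 1.64 without sire D. Phlda2 differed by 0.54 (-0.66 to 1.74), which was 0.07 without sire B and 1.12 without sire MTM13. Impact differed by -0.48 (-1.52 to 0.57), which was -0.76 without control A-2 and -0.17 on the means of 3 sires against 3, and Mest by -0.23 (-1.47 to 1.02), with the sign turned, at 0.03, without MTM13-4. For these 4 genes the intervals reached well to both sides of 0, so that neither a change nor its absence was shown.

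For the other members with larger differences the groups overlapped as well. Usp29 differed by 0.24 (95% interval -0.18 to 0.65), with 9 of 10 PJ34 embryos above the control mean, and the difference was 0.43 without sire MTM13 and 0.14 without sire MTM11. Peg10, a placental gene derived from a retrotransposon, differed by 0.21 (-0.16 to 0.58), which was 0.08 without embryo MTM13-2. Cdkn1c differed by 0.13 (-0.35 to 0.60), with the sign turned, at -0.01, without embryo MTM11-4. Ndn, below the band in every embryo, differed by 0.14 (-0.003 to 0.29, limma, unadjusted p = 0.0551, adjusted p = 0.846). All remaining members had absolute differences of at most 0.11 on the log2 scale, the value of Tssc4, whose interval was -0.21 to 0.43.

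**Figure D3:**
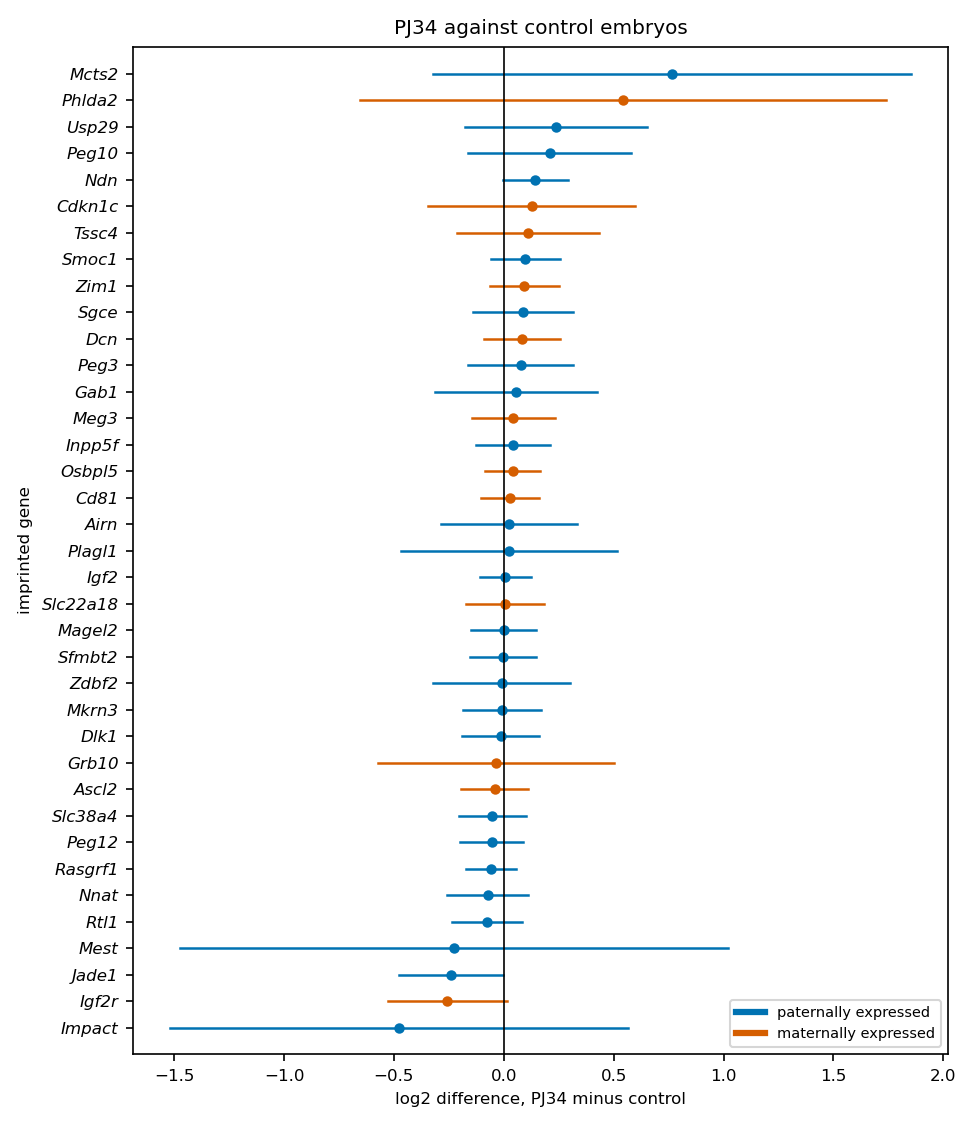
Log2 difference between the mean of 10 PJ34 embryos and the mean of 7 control embryos (horizontal axis) for each of the 37 imprinted genes (vertical axis), with 95% intervals from limma as lines. Only the interval of Jade1, from -0.48 to -0.004, did not reach 0 before adjustment, and no member passed the adjusted threshold.

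The members were also grouped as 2 parental classes, as a description with no test. The mean deviation of the paternally expressed members minus that of the maternally expressed members, each row measured from its own mean over all embryos, was 0.02 ± 0.21 (SD, n = 7) in control embryos and -0.02 ± 0.23 (n = 10) in PJ34 embryos, a difference of -0.04. Without single embryos this difference ran from -0.09 (without MTM13-3) to -0.001 (without control D-1), so its size rested on single embryos. In control embryos this value ran from -0.25 to 0.27 and in PJ34 embryos from -0.31 to 0.46.

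Since each family shares 1 father, families were compared next. Against all controls, 0 members passed in MTM11 (background 0.00459% of rows), in MTM13 (background 0%) and in MTM14 (background 0.0551%). Igf2r was the only member with an unadjusted p below 0.05 in any family. The share of all rows below 0.05 was not counted for the families, so nothing is read from this count. In MTM11 the 4 embryos had Igf2r values of 9.06, 9.16, 9.46 and 8.68. The mean of Igf2r there was lower than its control mean, with a log2 difference of -0.42 (limma, unadjusted p = 0.0122, adjusted p = 0.851). In MTM13 its difference was -0.25 and in MTM14 0.06, and without sire MTM11 the difference of the whole PJ34 group was -0.15. Between the 3 PJ34 sires 0 members passed the F test (background 0.0138% of rows) and 0 had an unadjusted p below 0.05 (background 4.91%).

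Single embryos were then set against the 7 controls one at a time, because each embryo is the product of 1 sperm. In 8 of the 10 PJ34 embryos no member was called, and in the other 2 embryos 1 member each was higher. The background was 0.868%, 0.289%, 0.537% and 0.579% of all rows in the 4 embryos of MTM11, 0.918%, 0.491%, 0.551% and 0.615% in those of MTM13, and 0.62% and 0.34% in those of MTM14, so that 1 call or none among 37 members is near the background. None of the 7 control embryos had a member called against the other 6, where 0.487% of rows were called in A-2, 0.381%, 0.464% and 0.289% in the embryos of sire B, and 0.427%, 0.445% and 0.289% in those of sire D. Averaged over sets of 6 controls, so that both groups were measured alike, 0.347% of member rows were called in PJ34 embryos and 0% in control embryos, against 0.531% and 0.397% of all rows.

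Peg10 was called in MTM13-2 (background 0.491% of rows), at 7.69 against a control range of 6.18 to 6.48, which is 2.52-fold above the control mean (limma, adjusted p = 0.00759). The next PJ34 embryos were MTM14-1 at 6.85, MTM13-1 at 6.84 and MTM11-2 at 6.54, also above the control range, while MTM13-4 lay below it at 6.07. Sgce, the neighbour of Peg10 in the same paternally expressed domain and a component of the sarcoglycan complex, was at 5.27 in MTM13-2, within its control range of 5.14 to 5.59. Cdkn1c was called in MTM11-4 (background 0.579% of rows), at 8.76 against a control range of 7.09 to 7.80, or 2.60-fold above the control mean (limma, adjusted p = 0.0996). With arrays centred on their medians this call was lost. With the spread estimated from all 17 embryos Peg10 stayed called and Cdkn1c was not. In that fit Ndn in MTM13-3 and Sgce in MTM13-4 were called as higher, both from levels below the band. The share of all rows called was not counted for these 2 alternatives, so their calls cannot be set against a background.

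The embryo with the highest Cdkn1c value also stood at the ends of a second domain. MTM11-4 had the lowest Igf2r value of all embryos, at 8.68, and the highest value of Airn, at 6.40. Airn is a long noncoding RNA transcribed antisense to Igf2r from the paternal copy that silences Igf2r on that copy, and MTM11-4 was the only embryo in which its row was above the band limit. Over 17 embryos the Pearson correlation of Igf2r with Airn was -0.46 (permutation test, p = 0.0639, adjusted over the 8 pairs of neighbours tested 0.374) and Spearman's rho was -0.26 (permutation test, p = 0.307, adjusted 0.583). Without the 2 embryos farthest from the median of Igf2r, MTM11-4 and control B-3, the Pearson correlation was 0.14, so the relation rested on those embryos. Within sires, that is with values centred on each sire's mean, it was -0.67. That value still included MTM11-4 and B-3, left out the 1 embryo of sire A and was not tested. It was not computed without MTM11-4 and B-3, so it does not show a relation apart from them. As Airn overlaps Igf2r on the other strand and no source used here names the strand that each row detects, the assignment of signal between them is uncertain.

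**Figure D4:**
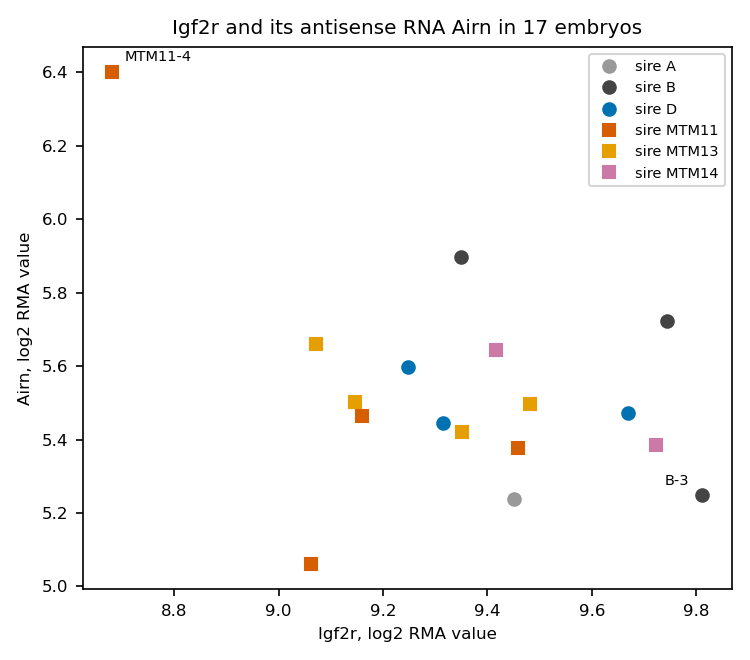
Log2 RMA value of Igf2r (horizontal axis) against that of Airn (vertical axis) in the 17 embryos, with circles for control and squares for PJ34 embryos, coloured by sire. Embryo MTM11-4 lies alone at 8.68 for Igf2r and 6.40 for Airn; without it and control B-3 the correlation was 0.14.

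The other 7 pairs of neighbours gave Pearson correlations from -0.30 (Peg10 with Sgce) to 0.39 (Peg3 with Zim1), and no pair passed. For Peg3 and Usp29, which share the promoter printed above, the correlation was 0.12, and for Mcts2 with its host H13 it was -0.14. The pairs share the same 17 embryos and their array normalization, and 4 of the 12 pairs planned could not be computed because at least 1 gene of each had no row of its own.

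Lastly, the spread between embryos was compared. The SD was larger in PJ34 embryos for 23 of 37 members, or 62.2%, and for 53.6% of all rows. The median ratio of the SDs, PJ34 over control, was 1.28 over members and 1.05 over all rows, and for members it ran from 1.12 without MTM13-3 to 1.33 without MTM13-2. No member passed limma's test on absolute deviations at an adjusted p below 0.1 (background 0.0275% of rows). On simulated data this test did not recover rows with a raised SD, so the absence of calls says nothing about the spread. Before adjustment 3 members, Peg10, Mest and Meg3, had an unadjusted p below 0.05 (background 8.69%). With deviations from the sire mean they were Mest, Ascl2 and Dcn (12.3% of rows), and with centred arrays Smoc1 and Dcn joined the first 3 (8.76% of rows). Peg10 had an SD of 0.47 in PJ34 and 0.11 in control embryos, Mest 1.49 and 0.83, and Meg3, a long noncoding RNA of the Dlk1 domain, went the other way with 0.11 and 0.26. By parental class the median ratio was 1.29 for paternally and 1.18 for maternally expressed members, and of the 5 genes silenced by histone methylation 4 had the larger SD in control embryos.

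**Figure D5:**
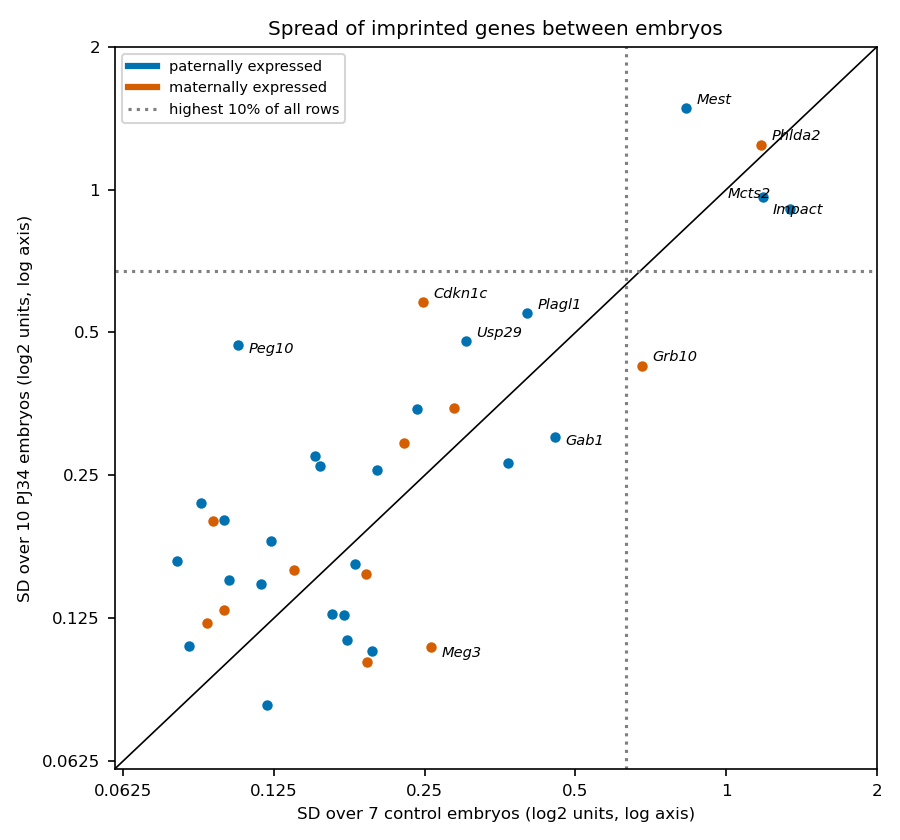
SD over 7 control embryos (horizontal log axis) against SD over 10 PJ34 embryos (vertical log axis), in log2 units, for each of the 37 imprinted genes, with the line of equal SD. Dotted lines mark the highest 10% of all rows; Mest, Phlda2, Impact and Mcts2 lay beyond both, and 23 genes lay above the line of equal SD.

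The genes that set and keep imprints were listed beside the members. Of 31 rows of 25 such genes, 0 passed the adjusted threshold in PJ34 against control embryos, and at an unadjusted p below 0.05 there were 2 higher and 1 lower rows, beside 1.96% and 3.93% of all rows. Kdm1b, a histone demethylase needed for imprints in the egg, was at 7.02 ± 0.38 (SD, n = 10) in PJ34 and 6.65 ± 0.22 (n = 7) in control embryos, and Uhrf1, which recruits the maintenance methyltransferase, at 10.13 ± 0.23 and 9.80 ± 0.45. Setdb1, a histone methyltransferase that acts with ZFP57 and Trim28, was at 7.79 ± 0.36 and 8.20 ± 0.30. Zfp57 itself was at 12.11 ± 0.16 and 11.97 ± 0.14, a difference of 0.15 (95% interval -0.01 to 0.30). Of 36 rows of 34 host genes, neighbours and further imprinted genes, 0 passed, and at an unadjusted p below 0.05 2 were lower, the noncoding Rian at -0.28 and the ion channel gene Trpm5 at -0.14, and 2 were higher, Trappc9 at 0.16 and Cobl at 0.22, beside the same shares of all rows.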

How the data were processed

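RNA of single 2-cell embryos was isolated, amplified with a whole-transcriptome kit and hybridized to 1-colour Affymetrix Mouse Gene 1.0 ST arrays, 1 array per embryo. The values that the authors deposited are log2 intensities from RMA (background correction, quantile normalization across arrays and summarization into probe sets) in Partek. Not given in the sources used here are the software versions and the build behind the probe sets. No further normalization was applied. Array medians lay between 6.12 and 6.23. Arrays have no read depth, and precision is limited by how many embryos there were, with a median standard error of 0.09 on the log2 scale for a group difference.

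Of 28815 rows, 21780 carried 1 symbol by GEO's platform annotation (19935 genes), 1605 several and 5430 none. Older symbols were replaced through gene IDs with those of a table on GRCm38.p6, which 21689 rows matched. Groups and sires were taken from the labels, in which the control sires are described as saline treated in some fields and as untreated in 1 other. Saline was taken, as in the protocol.

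Differences were tested with limma 3.58.1 in R 4.3.3 (linear model, empirical Bayes, two-sided), with Benjamini-Hochberg adjustment over all 21780 rows and a threshold of 0.1. Families were fitted together with the controls as 4 groups, single embryos against the spread of the 7 controls (which takes it that 1 embryo varies as controls do), and spread was tested on absolute deviations from the group mean, scaled for group size. These steps were checked on simulated data, where the spread test recovered no changed row and the single-embryo test fewer than the group test. Correlations used 100000 permutations in scipy 1.17.1, and figures were drawn with matplotlib 3.10.9 under Python 3.11.15. Embryo numbers count embryos within a sire and pair no samples.

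The members, lists and tests were chosen with earlier results of these data known. Genes were named by rule: members with an unadjusted p below 0.05, the 10 largest group differences, calls in families or single embryos, the 6 largest SDs over control embryos, and members above the band. The host and neighbour, regulator and marker lists are background. Alternatives were the sire as a random block, sire means, the plain analysis of variance of the methods, centred or again normalized arrays, other row filters, and leaving out each embryo and each sire.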

Additional observations from a re-analysis of the deposited data

Results flagged for a closer look

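Among 74 sets of values (37 imprinted genes in each group), 9 held an embryo set apart from the rest of its group by Dixon's criterion, where about 1 in 20, or 3.7, is what chance gives for values that follow a normal distribution. The share of members, 12.2%, was near that of all rows, 11.8%. By group it was 2.7% of members against 10.5% of rows in control embryos and 21.6% against 13.2% in PJ34 embryos, and the difference between groups was not tested. In the control group this was the low Gab1 value of B-2, at 5.34. In the PJ34 group 6 values were set apart at the high end. They were Peg3 in MTM11-2 at 6.98, Peg10 in MTM13-2 at 7.69, Plagl1 in MTM11-1 at 8.36, Airn in MTM11-4 at 6.40, Ndn in MTM13-3 at 5.28 and Mkrn3 in MTM11-4 at 5.41. At the low end, embryo MTM13-1 was set apart for Usp29 at 8.80 and for Mcts2 at 5.66. The Ndn and Mkrn3 values lay below the band limit of 6.2936 all the same. No cause of these values was tested.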

How the results depend on the processing

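The count of members passing in PJ34 against control embryos was 0 in all 31 alternatives, sire as a random block included, and the count in families was 0 in all 19. Of 309 alternative values of the 10 largest group differences, 306 kept their direction. The 3 that turned were Cdkn1c at -0.0123 without MTM11-4 and at -0.0401 without sire MTM11, and Mest at 0.0252 without MTM13-4. Leaving out 1 embryo at a time, the difference ran from -0.0123 to 0.223 for Cdkn1c and from -0.506 to 0.0252 for Mest. Leaving out sire D, Mcts2 had an unadjusted p of 0.00345, and its lowest adjusted p over all alternatives was 0.706 (limma). The 2 calls in single embryos became 1, that of Peg10, with arrays centred on their medians, and the number of members above the band fell from 18 to 11 with the 99th percentile as the limit. The cause was not tested, other than that a higher limit leaves fewer rows. No paired analysis was possible because embryo numbers only count embryos within a sire. With 7 and 10 embryos of 3 sires each, the 95% intervals of Mest, Impact, Phlda2 and Mcts2 spanned more than 2 log2 units, and no statement on smaller changes of these genes can be drawn.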
